A study of Mus musculus with 25 samples.

Results

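The N1/N1-alone fragments are stretches of DNA listed as marked when both fused proteins were N1 (Notch1) and listed for no other complex. They were chosen by list membership: a fragment had to lie, with identical ends, in the N1/N1 list and in none of the N1/RBP, N1/MAML, N1/p300, Mef2c/MAML and Mef2c/p300 lists, and to be at most 100 kb long on the 19 autosomes or X. There were 9992 such fragments among 96403 distinct fragments of the 6 lists, and they made up 31.3% of the 31935 N1/N1 fragments on these chromosomes. The remaining 21943 N1/N1 fragments lay in at least 1 other list and are called shared N1/N1 fragments below. A list holds only fragments that scored over Dam. Absence from it does not show that the complex never marked the fragment. The first base of chromosome 11 to base 3002119 is also in the N1/N1 list alone, with a score of 146, and was left out by the length limit. The longest fragment kept, on chromosome 6 from 54211523 to 54214960, spans 3438 bp.

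The libraries come from mK4, a mouse cell line from embryonic kidney mesenchyme. In split DamID (SpDamID) the bacterial methylase Dam is cut into parts called D and AM, which are joined to a pair of proteins, and GATC sites gain a methyl group where the pair meets. N1-D was paired with N1-AM-Ert2 (2 libraries), RBP-AM-Ert2, MAML-AM-Ert2 or p300-AM-Ert2 (3 each), Mef2c-D with MAML-AM-Ert2 or p300-AM-Ert2 (1 each), and all lists were scored against 3 libraries of Dam. FAIRE libraries for open chromatin came from N1wt (3, with 1 input) and control cells (3), and N1 was mapped by ChIP through a myc tag (1 library and 1 input). Of the 2 N1/N1 libraries, 1 carries the strain label CD2 instead of CD1. The promoters of the fusions and any agent given to the cells are not stated in the sources used here.

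Notch1 is a receptor whose inner part is cut free after ligand binding, enters the nucleus and joins RBP (RBPJ), which reads the DNA, and MAML, which recruits the acetyltransferase p300. Pairs of such complexes can dimerise on paired RBPJ sites that face each other, and N1/N1 marking was built to read out that arrangement. In kidney mesenchyme, Notch is known for its part in nephron patterning. Whole Dam also marks accessible DNA, and each complex was scored over it. Neither gene names nor sequence were assigned, because the files use build mm9 and no genome or annotation of that build was used here.

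Each list pools its libraries into 1 score per fragment, so no value has a replicate error, no test between groups could be run, and read depth is unknown. Intervals below are exact Clopper-Pearson 95% intervals and cover counting error only, and spread is given over the 20 chromosomes. The SpDamID fragments lie on a common map and never overlap in part. Of the N1/N1 list, 3 of 31938 fragments fell outside the chromosomes or length used.

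Fragments of N1/N1 alone were long. Their median length was 1182 bp, with quartiles of 845 and 1569 bp, against 641 bp and quartiles of 488 and 868 bp for shared N1/N1 fragments. In all, 6386 of them (63.9%) were 1000 bp or more, as were 3520 of the shared fragments (16.0%). On every one of the 20 chromosomes the median was higher for N1/N1 alone: it ran from 1100 bp on chromosome 17 to 1237 bp on chromosome 16, and that of shared fragments from 621 to 669.5 bp, so the ranges over chromosomes did not overlap. Among the fragments that only 1 list held, N1/MAML alone was longer, with a median of 1990 bp, and N1/RBP alone (812 bp), Mef2c/p300 alone (674 bp), N1/p300 alone (596 bp) and Mef2c/MAML alone (448 bp) were shorter.

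**Figure D1:**
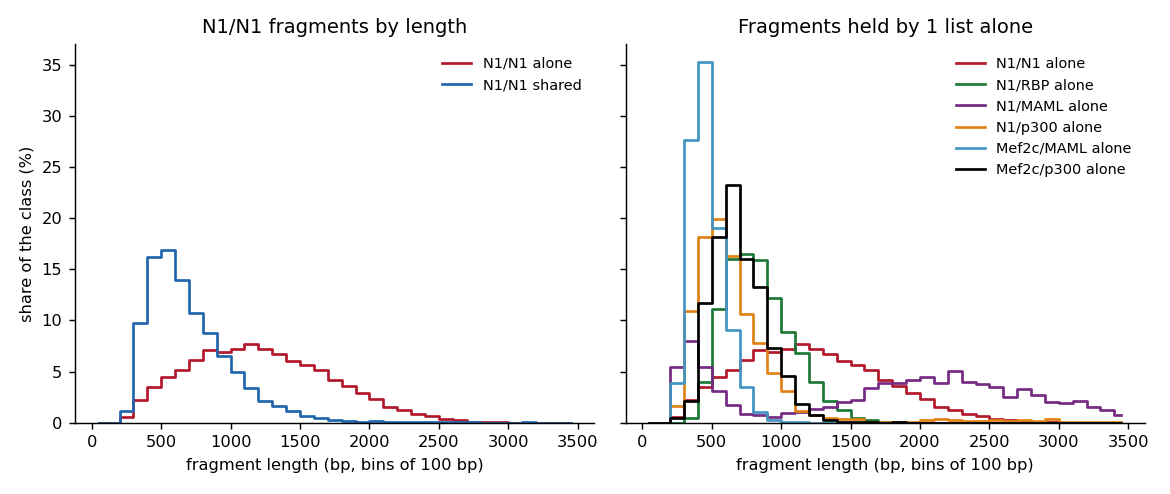
Length distribution of fragments in bins of 100 bp, as a share of each class. Left, N1/N1 alone (red, median 1182 bp) lies to the right of shared N1/N1 fragments (blue, median 641 bp); right, each of the 6 lists leaves a different range of lengths to itself, with Mef2c/MAML alone at a median of 448 bp and N1/MAML alone at 1990 bp.

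The share of N1/N1 fragments held by no other list rose with length, from 9.63% of 6564 fragments under 500 bp to 84.8% of 2527 fragments of 1500 to 1999 bp. It was 82.1% of 917 at 2000 to 2999 bp and 11.1% of the 63 fragments of 3000 bp or more, of which 7 were alone. The lists themselves differ in the lengths they hold. At 1500 to 1999 bp the N1/N1 list had 2527 fragments, N1/MAML 886, N1/RBP 370, N1/p300 150, Mef2c/p300 38 and Mef2c/MAML 30. The N1/RBP list placed 318 of its 370 fragments of that length in the N1/N1 list, 85.9%, but these were only 12.6% of the N1/N1 fragments. Length and complex cannot be told apart here, since each list has its own range of lengths and its own libraries.

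Sharing with N1/MAML differed between length ranges. That list had 1831 fragments of 2000 to 2999 bp, more than the 917 of N1/N1, yet 145 were in both, 7.92% of the N1/MAML and 15.8% of the N1/N1 fragments. At 3000 bp or more, 51 were in both, 6.63% of the 769 N1/MAML and 81.0% of the 63 N1/N1 fragments. At 500 to 749 bp, by contrast, 3106 of 4166 N1/MAML fragments (74.6%) were also in the N1/N1 list. Short fragments of N1/N1 alone were few: 1886 were under 750 bp, 18.9%, against 13971 of the shared fragments (63.7%).

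**Figure D2:**
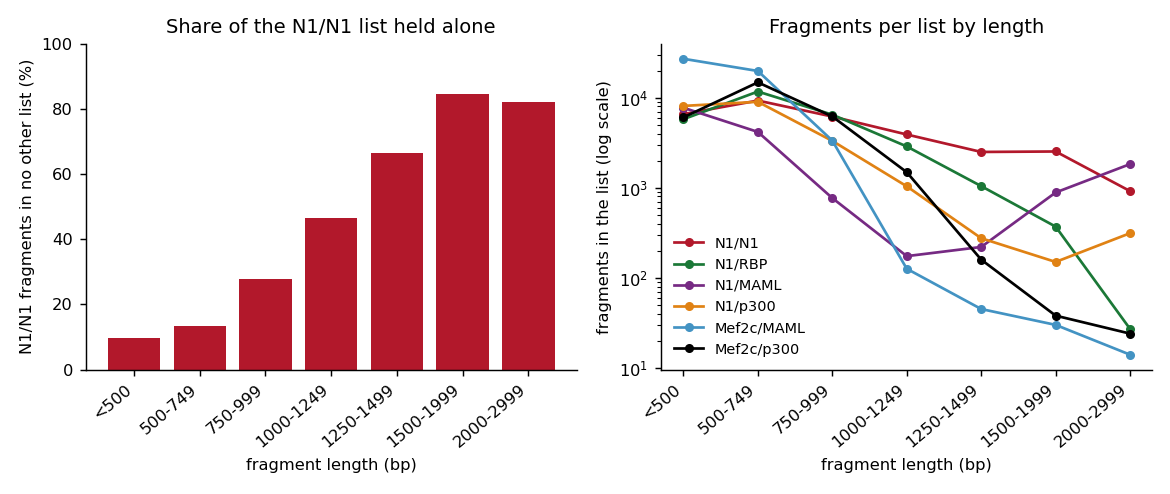
Left, the share of N1/N1 fragments in no other list, by fragment length, which climbs from 9.63% under 500 bp to 84.8% at 1500 to 1999 bp. Right, the number of fragments in each of the 6 lists by length, on a log axis; N1/N1 (red) holds the most from 1000 to 1999 bp, and N1/MAML (purple) from 2000 to 2999 bp. The bin of 3000 bp or more, with 63 N1/N1 fragments, is not drawn.

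Scores of N1/N1 alone, which come from the same contrast as the choice of the fragments and are given as description, were low but not all weak. The score is a whole number from 1 to 851 in this list, on a scale that is not stated. It had a median of 202 with quartiles of 106 and 325 for N1/N1 alone, against 331 with quartiles of 189 and 460 for shared fragments. The median of N1/N1 alone ran from 180 on chromosome 14 to 225 on chromosome 13, and that of shared fragments from 294 on X to 351.5 on chromosome 12. Fragments of N1/N1 alone made up 47.7% of N1/N1 fragments with scores of 1 to 146 and 12.9% of those with scores of 425 to 851. Among the 100 highest N1/N1 scores 3 were alone, and 523 of the 5000 highest, 10.5%. Lower scores beside shared fragments were also seen in the other 5 lists, where fragments held alone had medians of 191 to 269 and the rest of the list 318 to 428. Longer fragments of N1/N1 alone scored somewhat higher (Spearman's rho 0.21 across 9992 fragments, which share libraries and are not independent). Their median score was 159 at 500 to 749 bp and 282 at 2000 to 2999 bp.

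Open chromatin was less frequent at N1/N1 alone than at shared N1/N1 fragments. With any overlap counted, it stood close to the level of all fragments. FAIRE recovers nucleosome-poor DNA, and neither FAIRE nor ChIP was used in choosing the fragments. A total FAIRE region overlapped 1867 of the 9992 fragments of N1/N1 alone, 18.7% (interval 17.9 to 19.5%), beside 19.3% of all distinct fragments. For shared N1/N1 fragments it was 9415 of 21943, 42.9% (42.3 to 43.6%), which puts N1/N1 alone at -24.2 percentage points. The share of N1/N1 alone ran from 14.7% on chromosome 18 to 22.9% on chromosome 1, with a median of 18.0%, and that of shared fragments from 31.3 to 52.5%. The ranges did not overlap, and N1/N1 alone was lower on all 20 chromosomes. Of the fragments of N1/N1 alone, 8102 (81.1%) lay in no FAIRE and no ChIP region, close to the 80.0% of all distinct fragments, and 56.2% of shared N1/N1 fragments did. Under stricter overlap rules N1/N1 alone lay further below all distinct fragments. By fragment centre total FAIRE held 8.37% of N1/N1 alone and 13.2% of all distinct fragments. By overlap of 50% of the smaller region it held 11.04% and 13.9%. Median lengths of these classes were 1182 and 596 bp.

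Set side by side at like length or like score, N1/N1 alone was lower in most ranges. At 500 to 749 bp total FAIRE held 15.5% of 1254 fragments of N1/N1 alone and 42.0% of 8039 shared ones, and at 1500 to 1999 bp 20.2% of 2142 and 44.7% of 385. At 2000 to 2999 bp the shares were 21.9% of 753 and 25.6% of 164, and their intervals (19.01 to 25.04% and 19.12 to 33.0%) overlapped. At N1/N1 scores of 1 to 146 the shares were 14.8% against 30.5%, and at 425 to 851 they were 32.7% against 57.1%. Both classes were then set side by side in 28 strata of length and score, and N1/N1 alone was lower in 27 of them. With shared fragments weighted to the lengths and scores of 9985 fragments of N1/N1 alone, the difference was -14.1 points, 18.7% against 32.8%.

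**Figure D3:**
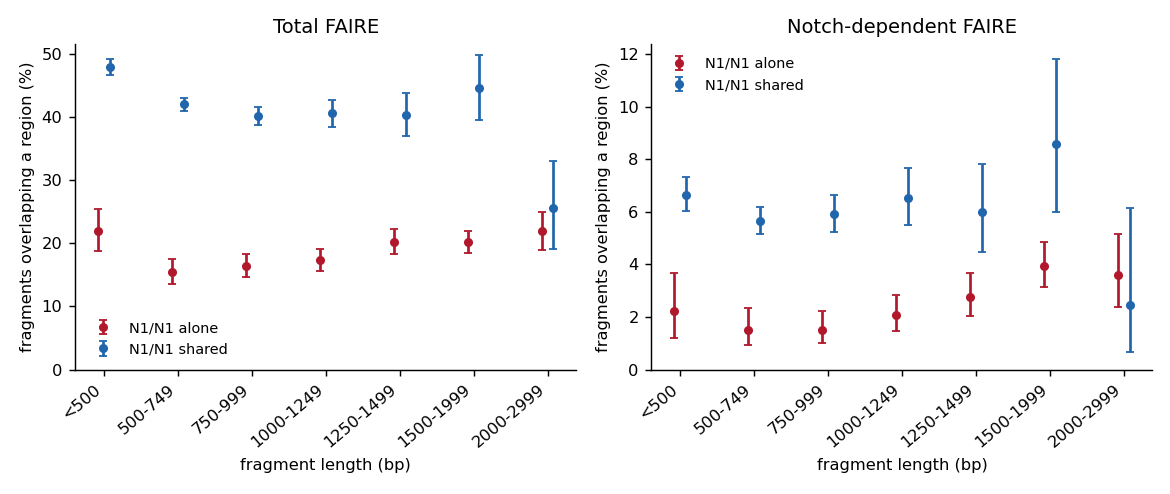
Share of N1/N1 fragments that overlap a total FAIRE region (left) and a Notch-dependent FAIRE region (right), by fragment length, for N1/N1 alone (red) and shared fragments (blue). Bars are exact 95% intervals for counting error; in total FAIRE the red points sit between 15.5 and 22.0%, and among the lengths drawn the intervals of both classes meet only at 2000 to 2999 bp. The bin of 3000 bp or more, with 7 fragments of N1/N1 alone and 56 shared, is not drawn.

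Set against other fragments held by 1 list, N1/N1 alone had the highest share in total FAIRE when any overlap counted. N1/RBP alone had 15.6% (14.6 to 16.7%), N1/MAML alone 12.4%, N1/p300 alone 11.2%, Mef2c/MAML alone 8.70% and Mef2c/p300 alone 2.89%. N1/N1 alone exceeded N1/RBP alone on 14 of 20 chromosomes and fell below it on 6, and their ranges over chromosomes overlapped (14.7 to 22.9% and 10.4 to 24.5%). Long fragments have more room for an overlap. When the centre of the fragment had to lie in the region, the shares were 8.37% for N1/N1 alone, 8.72% for N1/MAML alone and 7.95% for N1/RBP alone, so this order changed with the measure. By length, with any overlap counted, N1/N1 alone was higher under 500 bp (22.0 against 9.21% of N1/RBP alone) and at 500 to 749 bp (15.5 against 13.4%). It was lower at 750 to 999 bp (16.5 against 17.3%) and at 1000 to 1249 bp (17.3 against 18.0%), and higher from there to 1499 bp (20.3 against 16.7%) and at 1500 to 1999 bp (20.2 against 14.6%). N1/RBP alone had 228, 1773, 1840, 912, 245 and 41 fragments in these ranges, from short to long. The difference was 3.06 points as counted and 2.80 with N1/RBP alone weighted to the length of 9232 members. In that weighting the 41 fragments at 1500 to 1999 bp stood against 2142 of N1/N1 alone. In the ranges with 912 or more fragments of N1/RBP alone, the direction was mixed. Whether the excess holds at like length was not tested further. Fragments in the N1/N1 and N1/RBP lists and no other, the closest class by makeup, had 35.7% of 3333 in total FAIRE at a median length of 1037 bp.

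Total FAIRE was about as frequent 1 kb from the centre of N1/N1-alone fragments as at the centre itself. At the centre of shared N1/N1 fragments total FAIRE reached 32.4% and fell to 16.4 and 16.1% at 1 kb to either side. For N1/N1 alone it was 8.37% at the centre, 8.14 and 8.29% at 1 kb, and 2.20 and 2.32% at 10 kb. Among fragments of 1000 to 1999 bp, shared ones still peaked at the centre, 23.4% against 16.8 and 17.1% at 1 kb, while N1/N1 alone had 7.64% at the centre and 8.03 and 8.43% at 1 kb. The 4971 fragments of N1/N1 alone with no fragment of another list within 2 kb had a lower curve with a central peak, 5.37% at the centre, 3.12 and 3.68% at 1 kb and 1.87% at 2 kb on both sides. Fragments of N1/N1 alone outside total FAIRE, 8125 in all, lay a median of 22021 bp from the nearest such region, and shared ones outside it 13663.5 bp. Such a region lay within 1000 bp of 879 (10.8%) of these fragments of N1/N1 alone, and of 17.3% of the shared ones.

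**Figure D4:**
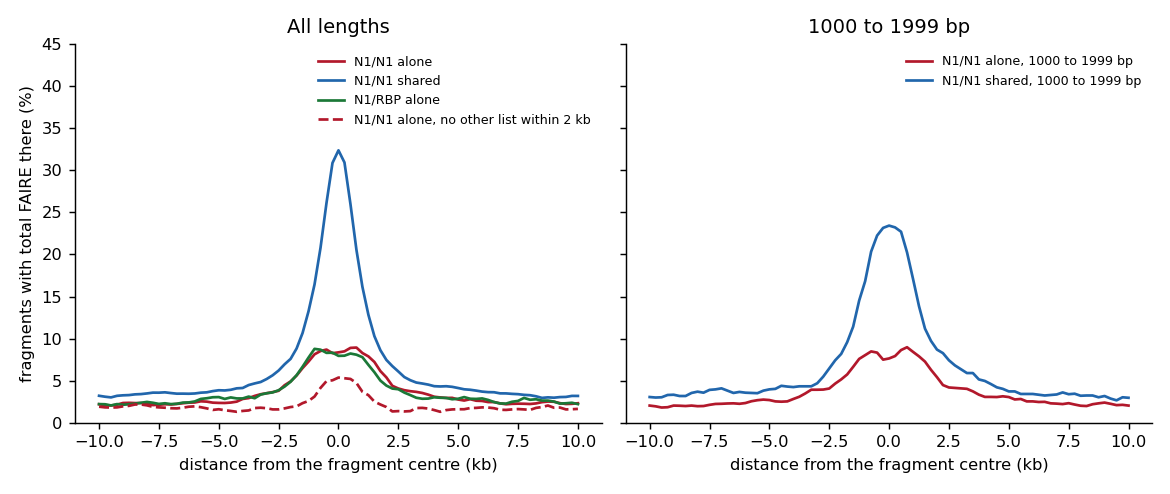
Share of fragments with a total FAIRE region at each distance from the fragment centre, in steps of 250 bp. Left, shared N1/N1 fragments (blue) peak at 32.4%, whereas N1/N1 alone (red) and N1/RBP alone (green) are flat near the centre at about the same level, and N1/N1 alone with no other list within 2 kb (dashed) peaks at 5.37%; right, the same for N1/N1 fragments of 1000 to 1999 bp, where the peak of shared fragments is 23.4%.

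Notch-dependent FAIRE regions are those the authors listed separately by a rule not given in the sources used here. They overlapped 254 fragments of N1/N1 alone, 2.54% (2.24 to 2.87%), beside 2.8% of all distinct fragments. Shared N1/N1 fragments had 1335, 6.08% (5.77 to 6.41%). N1/N1 alone ran from 1.32% on chromosome 6 to 4.47% on chromosome 15 and was below shared fragments on all 20 chromosomes. The ranges over chromosomes overlapped, since the lowest share of shared fragments was 3.43%. Read against the open fragments only, the classes were close: 251 of the 1867 fragments of N1/N1 alone in total FAIRE also lay in a Notch-dependent region, 13.4%, and 13.8% of the shared ones did. Among all distinct fragments it was 14.0%. By length the share of N1/N1 alone was 1.52% at 500 to 749 bp and 3.92% at 1500 to 1999 bp, and at 2000 to 2999 bp it was 3.59% against 2.44% of shared fragments, where the intervals overlapped. When the fragment centre had to lie in a Notch-dependent region, N1/N1 alone had 1.09% and all distinct fragments 1.88%.

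Seen from the open regions, N1/N1 alone gave the only listed SpDamID mark at some. Of 19353 total FAIRE regions, 1843 (9.52%) held a fragment of N1/N1 alone, and 937 of these (4.84% of all) held no fragment of another list. Mef2c/MAML alone was the sole listed mark at 769 regions, N1/RBP alone at 409, N1/MAML alone at 297, N1/p300 alone at 207 and Mef2c/p300 alone at 145. As a share of the regions that held such a fragment, N1/N1 alone did not lead. It had 50.8%, N1/MAML 53.9%, N1/RBP 52.5%, N1/p300 45.8%, Mef2c/p300 43.0% and Mef2c/MAML 41.1%. Any overlap counted, and the classes differ in length. Of 2396 Notch-dependent regions, 249 (10.4%) held a fragment of N1/N1 alone and 129 (5.38%) no fragment of another list, against 63 for Mef2c/MAML, 53 for N1/p300 and 51 for N1/RBP. Lists kept from 4116 (N1/p300) to 22724 (Mef2c/MAML) fragments to themselves, and the counts of regions did not follow that order. Mef2c/p300 kept 11781, more than the 9992 of N1/N1, and had the fewest such total FAIRE regions. The 937 regions had a median MACS score, the authors' value for peak strength, of 147.26, against 193.42 where another list also had a fragment and 156.73 for all total FAIRE regions. Each of the other 5 lists differed in the same direction, with medians of 119.43 to 169.16 against 173.555 to 206.13.

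N1 ChIP held few fragments of N1/N1 alone. There were 51, 0.51% (0.38 to 0.671%), beside 1.41% of all distinct fragments, and 561 of the shared N1/N1 fragments, 2.56% (2.35 to 2.77%). N1/RBP alone had 1.57% (1.24 to 1.95%). The share was below that of shared fragments on all 20 chromosomes and below that of N1/RBP alone on 16, above it on 3 and equal on 1. Each of the 51 matched its ChIP region base for base, and so did each of the 561 shared fragments, so the match is not particular to N1/N1 alone. The 51 were short for their class, with a median of 593 bp, and 6 of the 6386 fragments of 1000 bp or more were among them. All 22306 ChIP regions had a median of 137 bp and 413 reached 1000 bp. At matched length the shares of N1/N1 alone and shared fragments were 2.85% against 4.15% under 500 bp, where the intervals overlapped, and 0.465% against 1.37% at 750 to 999 bp. The shares of all distinct fragments and N1/RBP alone were not matched for length, and their median lengths were 596 and 812 bp. N1/N1 alone, with a median of 1182 bp, had 1.24% in ChIP among its fragments of 300 to 1000 bp. Total FAIRE held 31 of the 51 (60.8%) and Notch-dependent FAIRE 2, against 395 (70.4%) and 12 of the 561 shared fragments in ChIP. Their ratio of ChIP to input had a median of 13.8, against 15 for all ChIP regions, and in 40 the deposited input signal was the fixed value of 0.1, as it was in 20102 of all 22306 ChIP regions and in 430 of the 561 shared fragments.

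Fragments of N1/N1 alone often lay next to fragments of other lists. A fragment held by another list touched 2124 of them, 21.3%, which is description, since the other lists took part in the choice. The median distance to the nearest such fragment was 1948 bp, and 5021 (50.3%) had one within 2000 bp. N1/RBP alone was close to this, with 21.2% touching and a median of 1579 bp, and N1/MAML alone lay farther off, with 11.1% and 6997 bp. A count by list gave 1050 fragments of N1/N1 alone that touched an N1/RBP fragment, 873 an N1/p300 fragment, 569 an N1/MAML fragment, 1417 a Mef2c/MAML fragment and 654 a Mef2c/p300 fragment. Per 1000 fragments of each list, N1/p300 had 39.0 such contacts, N1/RBP 37.1, N1/MAML 34.4, Mef2c/MAML 28.1 and Mef2c/p300 22.7.

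In touching pairs, the member of N1/N1 alone was the longer fragment in 1748 of 2124 (82.3%), with medians of 1165.5 and 538.5 bp. The touching fragment was itself in the N1/N1 list in 1050 pairs, and there N1/N1 alone had the lower N1/N1 score in 723 (68.9%), with medians of 232.5 and 378. In 138 pairs the neighbour was marked by all 6 complexes. Most fragments of N1/N1 alone did not touch each other: 9612 stood by themselves, 184 runs held 2 and 4 runs held 3. They were 9992 of 96403 distinct fragments, and whether such contacts were fewer than that share gives was not tested. The run of 3 on chromosome 3, from 153947280 to 153950031, had scores of 325, 524 and 197, and that on chromosome 17, from 80179739 to 80182263, had 480, 517 and 149. On chromosome 16 the run from 85759286 to 85761932 scored 382, 173 and 256, and on chromosome 2 that from 59662798 to 59665111 scored 225, 174 and 232. Only the first fragment of the chromosome 2 run lay in total FAIRE.

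The share in open chromatin fell with distance from other lists. Total FAIRE held 31.9% (29.9 to 34.0%) of the 2124 touching fragments, 23.9% of the 2187 with a neighbour within 1000 bp, 15.3% from there to 5000 bp, 11.03% to 20000 bp, 7.47% to 100000 bp and 4.69% (1.74 to 9.92%) of the 128 farther off. Notch-dependent FAIRE went from 4.38% of touching fragments to 1.16% at 20001 to 100000 bp. Median scores in the same order of distance were 223, 219, 183, 183, 166 and 212, and median lengths 1165.5, 1231, 1208, 1166, 1158 and 976.5 bp. The part of score and length in the fall was not tested. Even touching fragments stayed below the 42.9% of shared N1/N1 fragments.

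**Figure D5:**
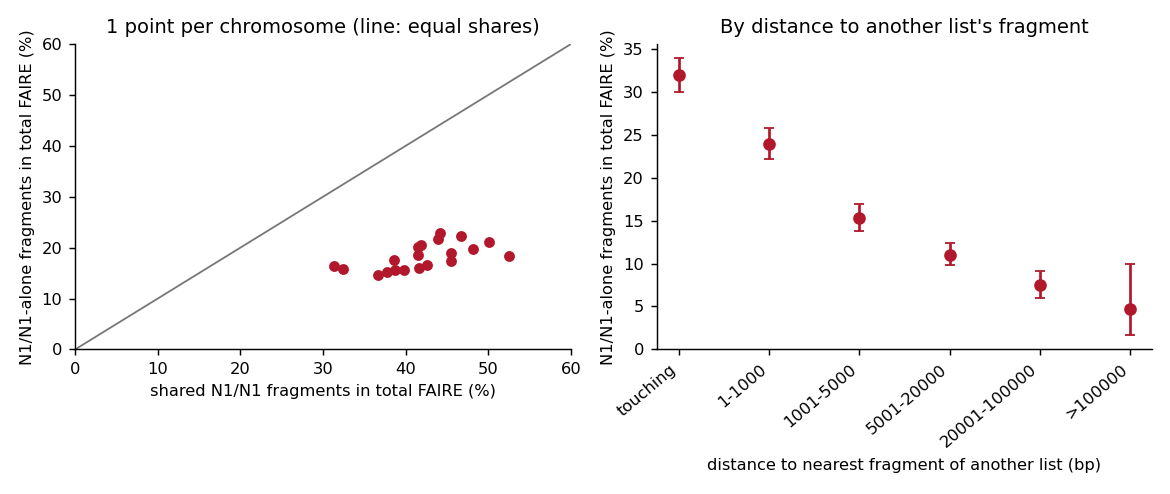
Left, share in total FAIRE of N1/N1 alone against that of shared N1/N1 fragments, with 1 point for each of 20 chromosomes; all points lie under the line of equal shares. Right, share of N1/N1 alone in total FAIRE by distance to the nearest fragment of another list, with exact 95% intervals, which falls from 31.9% for touching fragments to 4.69% beyond 100000 bp.

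Along the genome, fragments of N1/N1 alone followed the N1/N1 list. They were 28.1% of N1/N1 fragments on chromosome 11, the lowest share, and 35.0% on X, the highest, with a median of 31.1% over chromosomes. In windows of 1 Mb the median count was 3, and 12 windows held 20 or more. The densest was chromosome 15 from 12000001 to 13000000, with 36 fragments of N1/N1 alone among 103 N1/N1 fragments, 35.0%. All other lists were dense there too, with 170 fragments of Mef2c/MAML, 152 of Mef2c/p300, 81 of N1/RBP, 76 of N1/p300 and 70 of N1/MAML. No total FAIRE region began in that window. The next window, chromosome 5 from 139000001 to 140000000, had 27 of 82 and 27 FAIRE regions, which held 6 of the 27 fragments.

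The 10 fragments with the highest N1/N1 scores in this class scored from 680 to 752 and measured 1513 to 2710 bp, on 9 chromosomes. A total FAIRE region overlapped 5 of them, a Notch-dependent one 1 and a ChIP region 0, and 6 touched a fragment of another list. The highest, on chromosome 16 from 38394041 to 38396361, scored 752. A FAIRE region listed as total and as Notch-dependent, with MACS scores of 300.12 and 194.75, covered 1000 of its 2321 bp. It touched a fragment held by all 6 lists, 38396362 to 38396847, with an N1/N1 score of 571, N1/RBP 585, N1/MAML 659, N1/p300 665, Mef2c/MAML 663 and Mef2c/p300 529. Here the N1/N1 score was higher on the fragment of N1/N1 alone than on its neighbour, but the fragment was chosen for its high score.

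Chromosome 13 gave a like pair without open chromatin. The fragment from 114761019 to 114762643 scored 693 and touched one held by all 6 lists, from 114762644 to 114763169, with an N1/N1 score of 288 and a Mef2c/MAML score of 638. On chromosome 3, 152067171 to 152069575 scored 689 and touched a fragment of 5 lists, from 152066737 to 152067170, with an N1/N1 score of 524. Its FAIRE region had a MACS score of 64.65 and reached 298 of its 2405 bp. On chromosome 2, 36112708 to 36115047 scored 734 outside FAIRE and touched an N1/N1 and N1/p300 fragment with scores of 531 and 522.

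Of the 10, 8 lay within 1000 bp of a fragment of another list, and the next ones named, on chromosomes 4 and 2, lay farther off. Chromosome 4 from 137614634 to 137616146 scored 693 with its nearest neighbour, a Mef2c/p300 fragment, 7634 bp away. Chromosome 2 from 144105690 to 144107381 scored 687 with an N1/RBP fragment 8143 bp away at a score of 162. Neither lay in FAIRE or ChIP. On chromosome 11, 43740570 to 43742839 scored 681, also outside FAIRE, 152 bp from an N1/RBP fragment with a score of 94. The other three were on chromosome 10 (44043512 to 44045422, score 721), chromosome 7 (128949352 to 128951411, score 694) and chromosome 14 (30822708 to 30825417, score 680), and FAIRE regions overlapped 560, 103 and 1097 bp of them.

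In Notch-dependent FAIRE the highest scores after that on chromosome 16 were on chromosomes 19, 3, 10 and 2. Chromosome 19 from 11538953 to 11540634 scored 640 and held a whole Notch-dependent region of 767 bp with a MACS score of 143.18. On chromosome 10, 39983187 to 39984742 scored 629, and a Notch-dependent region with a MACS score of 351.55 covered 1495 of its 1556 bp, with the nearest fragment of another list 2467 bp away. On chromosome 2, 68819820 to 68821791 scored 624 with 608 bp in a Notch-dependent region and touched a fragment of N1/RBP, N1/MAML, N1/p300 and Mef2c/MAML. The fragment on chromosome 3, 144631932 to 144634295, scored 635 but met its region over 4 bp, and the region ran on across the neighbouring fragment, which had scores of 394 for N1/N1 and 483 for N1/RBP.

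In N1 ChIP, the highest N1/N1 scores of this class were 527, 443, 393, 390 and 365. Chromosome 3 from 106524655 to 106526539 led with 527, a ChIP to input ratio of 37.9 and a total FAIRE region with a MACS score of 738.38 over 1364 of its 1885 bp. Chromosome 1 from 74104915 to 74105382 scored 443 with a ratio of 16.3 and lay whole in a region listed as total and as Notch-dependent FAIRE. Chromosome 13 from 21903334 to 21903851 scored 390 with a ratio of 22.7 and lay whole in a total FAIRE region with a MACS score of 912.74. Chromosome 11 from 83665560 to 83667266 scored 393 with a ratio of 14.0, and chromosome 14 from 66456292 to 66457263 scored 365 with a ratio of 19.3, both outside FAIRE. All 5 lay within 190 bp of a fragment of another list, and 3 touched it.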

How the data were processed

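Of 25 libraries, those of a complex or assay were pooled before deposit, so that 9 region lists without library values were used. Per the file headers, the authors deposited for each of 6 complexes a whole-number score per fragment over Dam (confidence 0.999 or higher). The headers of the N1/RBP, N1/MAML and N1/p300 lists, but not of N1/N1, carry the word median. Lists were matched to complexes by protein initials. The deposited FAIRE scores come from MACS in Galaxy, per the file headers. The deposited ChIP table gives a signal for ChIP and for input and their ratio, which is 10.0097 or more. The submitters' processing notes name mm9 as the build, and the sources used here give no aligner. FAIRE starts were moved by 1 base to count from 1.

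Overlap meant 1 bp or more. Shares, medians and distances were computed with Python 3.11.15, pandas 2.3.3 and scipy 1.17.1, and the overlap code was tested on simulated data. The text names the 10 highest N1/N1 scores, the 5 highest inside Notch-dependent FAIRE, the 5 highest inside N1 ChIP, the longest runs and the longest fragment. Members, classes and lists were chosen with earlier results of these data known. Alternatives were the overlap rule, score, length, chromosomes and neighbours. Motifs and genes were not analysed here for want of an mm9 genome.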

Additional observations from a re-analysis of the deposited data

How the results depend on the processing

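Over 7 results and 38 alternatives, 17 values stayed within the interval or range set for the main value, 21 moved, and 0 changed direction. Shares and counts cannot change direction, so the last value bears on the differences only. Some values were also bound to stay. The ChIP share could not move by centre or 50% overlap, nor could the number of fragments when any overlap with another list counted. For N1/N1 alone, the share in total FAIRE (18.7%) was 8.37% by fragment centre, 11.04% by 50% overlap, 24.6% from the median score up, 16.7% at 300 to 1000 bp and 15.1% without touching fragments. The share in Notch-dependent FAIRE (2.54%) was 1.09, 1.61, 3.63, 1.58 and 2.05% under the same settings. The share in N1 ChIP was 1.24% at 300 to 1000 bp. The difference from shared N1/N1 fragments in total FAIRE (-24.2 points) was -22.5 by 50% overlap, -26.4 at 300 to 1000 bp and -14.1 with shared fragments weighted to the members' length and score, and that in Notch-dependent FAIRE (-3.54) was -4.36 at 300 to 1000 bp and -2.59 weighted. The difference from N1/RBP alone (3.06 points) was 0.417 by centre, 6.74 from the median score up and 1.70 at 300 to 1000 bp. The number of fragments was 4971 with none of another list within 2 kb and 3167 from the median score up. Both weightings, and that of N1/RBP alone to the members' length, were added after seeing the data. Searches for paired RBPJ sites with spacers of 15 to 17 bases were not run. No paired analysis was possible because the lists pool their libraries, and for the same reason no library could be left out. Depth per library is unknown.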
